A study of Mus musculus with 16 samples.

Results

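Microglia that gather around amyloid plaques switch on a characteristic set of genes, and 33 such activation genes were followed here across the 4 genotypes of a cortical RNA-seq study. The members were the rows of the deposited count table with one of these 33 gene symbols, out of 55385 genes in the table. A filter on low counts left 17555 genes for testing, with 32 of the 33 members among them. The members were chosen by values measured in these same data as well as by name: their levels in 5xFAD against wild-type cortex, and lower levels of myeloid genes in 5xFAD-Dp16 than in 5xFAD cortex, were in view. The 5xFAD against wild-type values are therefore given as a description with no p, and nothing is read from the number of members called there.

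Microglia are the resident macrophages of the brain. Where amyloid-β accumulates they contact the deposits and, through the lipid-sensing receptor TREM2 and its adaptor TYROBP, lower part of their resting programme and raise genes for phagocytosis, lysosomes, lipid handling and secreted signals. Cst7, Itgax, Clec7a, Spp1 and Gpnmb are commonly used marks of this state, which is often called disease-associated.

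Polyadenylated RNA of the brain cortex was sequenced at 9 months of age from 4 groups of 4 mice, each of 2 females and 2 males. 5xFAD-Dp16 mice carry both genetic changes. 5xFAD mice carry human transgenes with familial Alzheimer's disease mutations, which the neuronal Thy1 promoter drives, and form amyloid plaques. Dp16 mice have a segment of their chromosome 16, with the mouse counterparts of many human chromosome 21 genes, in 3 copies. Wild-type mice were labelled C57BL/6J, no group was treated, and the labels name no cohort, litter or plaque measure. Values of single libraries are listed from replicate 1 to replicate 4. The females were replicates 1 and 4 in 5xFAD-Dp16, 1 and 3 in 5xFAD, 2 and 3 in Dp16, and 1 and 3 in wild-type. Levels are the authors' RPKM values, that is reads scaled by gene length and library size, given with the SD over 4 libraries. Log2 fold changes with their standard errors and adjusted p-values come from edgeR's quasi-likelihood test on the deposited counts, with sex as a term and Benjamini-Hochberg adjustment over all genes tested. A gene was called at an adjusted p under 0.05.

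Library totals ran from 16874481 to 22912168 counts. Thy1, whose promoter drives the transgenes, stood at 1542 to 2205 CPM (counts scaled by library size) in the 8 transgenic libraries and at 736 to 1051 CPM in the other 8. The slope of expression on gene length was read in log2 CPM per doubling of length. It was lowest in wild-type replicate 3 (−0.44), Dp16 replicate 4 (−0.18) and Dp16 replicate 3 (−0.17). Of these only wild-type replicate 3 lay clear of the rest, as 5xFAD replicate 2 followed at −0.13. The highest slope was 0.28, in wild-type replicate 1. Without the 3 libraries of lowest slope the number of members called was 14 for 5xFAD-Dp16 against Dp16, 26 for 5xFAD against wild-type, 18 for 5xFAD-Dp16 against wild-type and 0 for the other 3 genotype contrasts, beside 14, 22, 16 and 0 with them. The share of all genes called without these libraries is not given, so nothing is read from those counts of members. In whole cortex, more microglia and more RNA per microglia cannot be told apart.

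Promoters are shown for 5 members that recur below: Cst7, Itgax and Clec7a with 3 of the 4 largest fold changes on the Dp16 background, Igf1 with the smallest p for Dp16 within 5xFAD cortex, and Gpnmb with a wide spread between libraries. RefSeq promoters (GRCm38.p6, 250 bases before to 50 after the start) were at hand for 26 of the 33 members, 29 promoters in all. Capitals mark TGANTCA, the site of AP-1 factors, and GAGGAA, the short core of sites for PU.1, the lineage factor of macrophages. Each run reads 5′ to 3′ on the strand of the gene.
Cst7, chr2:150570165-150570464, plus strand: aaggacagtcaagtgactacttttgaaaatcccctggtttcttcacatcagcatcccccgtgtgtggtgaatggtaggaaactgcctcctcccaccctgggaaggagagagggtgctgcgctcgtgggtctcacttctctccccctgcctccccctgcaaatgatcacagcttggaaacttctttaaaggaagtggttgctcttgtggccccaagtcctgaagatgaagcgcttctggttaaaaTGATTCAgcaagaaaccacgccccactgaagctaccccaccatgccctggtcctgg
Itgax, chr7:128129300-128129599, plus strand: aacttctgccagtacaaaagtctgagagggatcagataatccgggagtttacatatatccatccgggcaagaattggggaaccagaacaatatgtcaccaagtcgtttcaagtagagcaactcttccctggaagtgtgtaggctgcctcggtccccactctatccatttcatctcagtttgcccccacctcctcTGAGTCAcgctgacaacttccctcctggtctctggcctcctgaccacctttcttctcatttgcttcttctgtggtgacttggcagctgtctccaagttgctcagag
Clec7a, chr6:129472730-129473029, minus strand: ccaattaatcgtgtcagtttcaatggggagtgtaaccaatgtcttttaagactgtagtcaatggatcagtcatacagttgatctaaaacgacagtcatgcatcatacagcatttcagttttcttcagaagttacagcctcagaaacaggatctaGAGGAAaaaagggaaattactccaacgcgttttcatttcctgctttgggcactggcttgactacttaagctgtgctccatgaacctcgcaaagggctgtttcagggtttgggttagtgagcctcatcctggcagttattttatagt
Igf1, chr10:87860861-87861160, plus strand: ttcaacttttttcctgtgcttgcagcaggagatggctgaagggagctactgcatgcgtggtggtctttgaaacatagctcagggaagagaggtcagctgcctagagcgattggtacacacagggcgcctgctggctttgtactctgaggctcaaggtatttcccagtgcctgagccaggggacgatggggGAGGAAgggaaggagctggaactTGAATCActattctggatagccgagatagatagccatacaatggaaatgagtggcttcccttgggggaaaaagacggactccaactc
Gpnmb, chr6:49036268-49036567, plus strand: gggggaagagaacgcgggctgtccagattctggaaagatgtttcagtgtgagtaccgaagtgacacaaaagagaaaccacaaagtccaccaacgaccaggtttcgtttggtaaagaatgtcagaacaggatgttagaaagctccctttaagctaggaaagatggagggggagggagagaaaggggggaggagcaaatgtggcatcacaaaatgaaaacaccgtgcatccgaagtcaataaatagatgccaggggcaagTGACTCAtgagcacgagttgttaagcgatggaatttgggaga

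The TGANTCA letters began 6 bases before the start in Cst7, 56 before in Itgax, 37 before in Igf1 and 8 after it in Gpnmb, and GAGGAA began 96 bases before the start in Clec7a. TGANTCA was in 20.7% of the members' promoters (Cd84, Cst7, Cybb, Gpnmb, Igf1 and Itgax) and in 7.81% of all 32851 promoters of the same length. GAGGAA was in 44.8% of the members' promoters against 28.3% of all, and its longer form GAGGAAGT in 6.9% (Samsn1 and Spp1) against 3.2%. The E-box CACGTG, which factors of the TFEB type bind at lysosomal genes, was in none of the members' promoters against 7.15% of all, CATGTG, the core of the M-box, in 10.3% against 14.2%, and the NF-κB site in 3.45% (Csf1) against 0.411%. Both strands were searched, capitals on the opposite strand show the complement, each GAGGAAGT also holds GAGGAA, and a match of letters describes the sequence only.

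On the Dp16 background, the transgenes came with higher levels of a large share of the members. In 5xFAD-Dp16 against Dp16 cortex, 14 of the 33 were called higher and 0 lower, and 0.387% of all genes tested were called higher. Of the 32 tested, 31 lay above 0 on the log2 scale, beside 51.2% of all genes, with a median of 1.79 against 0.01 over all genes. The values of 21 did not overlap between the groups (higher in 5xFAD-Dp16), as for 2.21% of all genes. Itgax, Hcar2, Cd22, Ly9, Dkk2, Cst7 and Cybb passed the low-count filter only through the transgenic libraries, so the counts and the median describe these genes and support nothing. Among the other 25 tested members, 9 were called higher and the median was 1.36. The count called was 8 without 5xFAD-Dp16 replicate 1, 8 without 5xFAD-Dp16 replicate 4 and 7 without Dp16 replicate 2, and 22 with no low-count filter, where 236 genes in all were called against 68 as reported. DESeq2 called 18, the same 14 with Capg (adjusted p = 0.00321), Cd180 (0.000145), Dkk2 (0.0148) and Gpnmb (0.000149). With the gene-length slope as a covariate edgeR also called 18, the same 14 with Capg (adjusted p = 0.00401), Cd180 (0.0174), Cd9 (0.00248) and Dkk2 (0.0285). The shares of all genes called by DESeq2, with the slope or with a library left out are not given here. Nothing is therefore read from the counts of members in those fits.

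**Figure D1:**
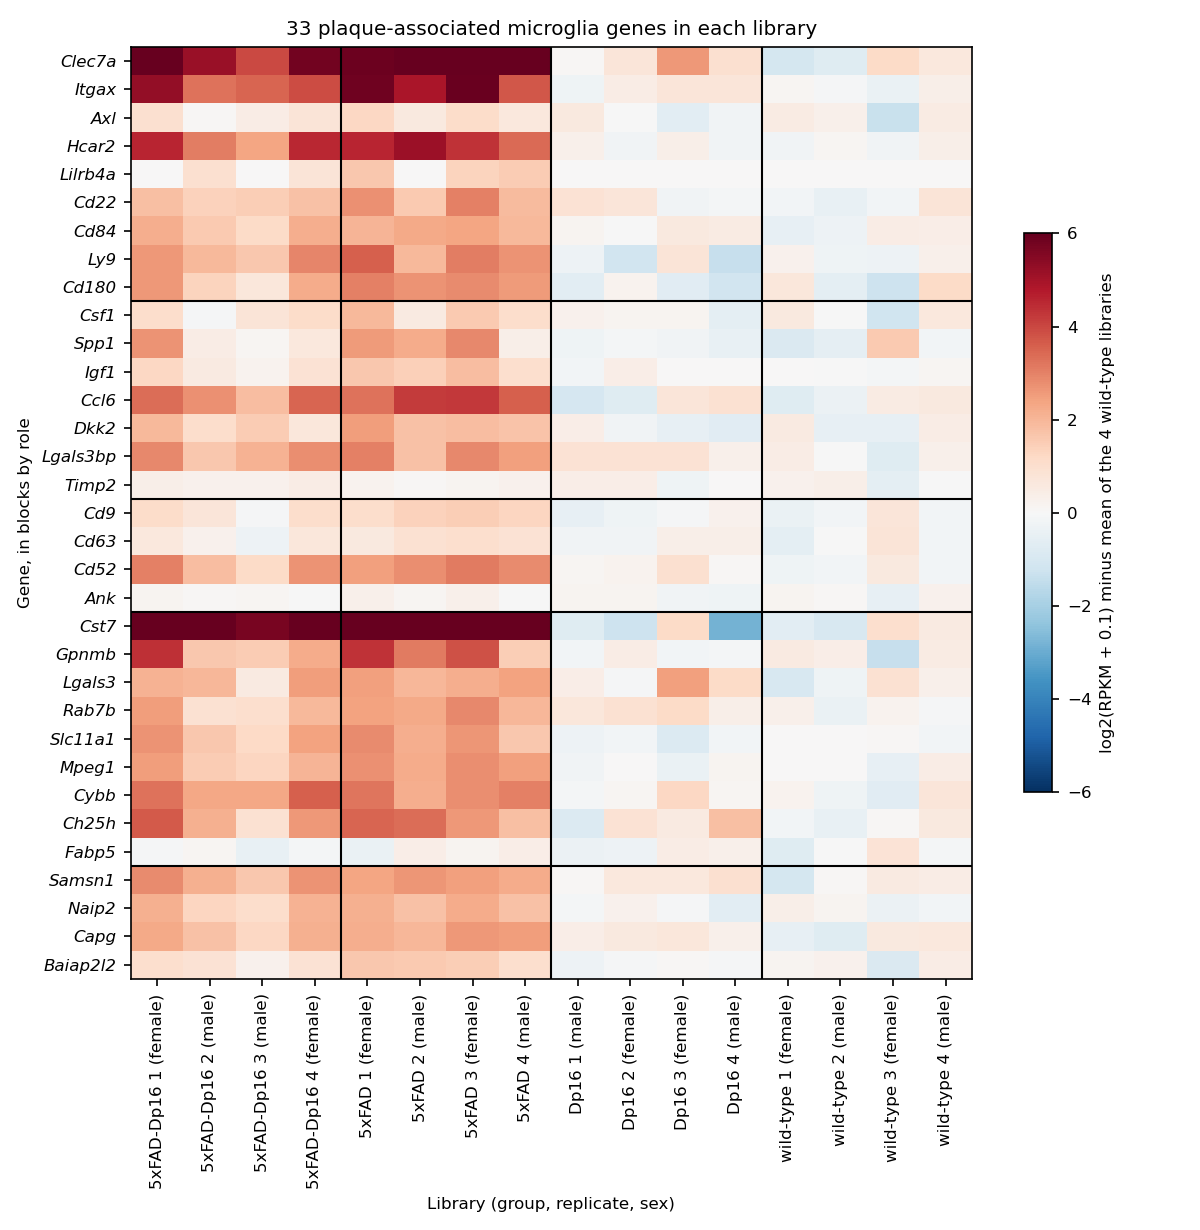
Heat map of the 33 members (rows, in blocks by role) in the 16 libraries (columns, with replicate and sex). Colour is log2(RPKM + 0.1) minus the mean of the 4 wild-type libraries, clipped at −6 and 6; rows such as Cst7, Itgax and Clec7a are dark in all 8 transgenic libraries, while Fabp5, Timp2 and Ank are pale throughout.

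Among the 9 surface receptors, Clec7a and Cd84 were called higher in 5xFAD-Dp16 than in Dp16 cortex, as were Itgax, Hcar2 and Ly9, which entered the test only through the transgenic libraries. Clec7a encodes dectin-1, a C-type lectin receptor that signals through SYK. It stood at 29.6, 15.3, 6.6 and 23.9 RPKM in 5xFAD-Dp16, 24.9, 28.6, 38 and 30.1 RPKM in 5xFAD, 0.355, 0.602, 2.51 and 0.726 RPKM in Dp16 and 0.104, 0.161, 0.837 and 0.567 RPKM in wild-type. Every transgenic library was above every other one, and within 5xFAD-Dp16 the lowest library, replicate 3, was far below the highest, replicate 1. Its log2 fold change against Dp16 was 4.10 ± 0.57 (edgeR adjusted p = 0.00369). The reference annotation (GENCODE M21) types Clec7a as a polymorphic pseudogene.

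Itgax encodes CD11c, an integrin chain of dendritic cells that microglia near plaques also carry. Its libraries read 5.02, 1.13, 1.36 and 1.9 RPKM in 5xFAD-Dp16, 7.35, 3.83, 7.89 and 1.63 RPKM in 5xFAD, 0.0104, 0.0794, 0.118 and 0.114 RPKM in Dp16 and 0.041, 0.0243, 0 and 0.0665 RPKM in wild-type. The 5xFAD-Dp16 and 5xFAD groups overlapped, the females of each stood above its males, and both groups lay above all libraries without transgenes. Against Dp16 the log2 fold change was 4.70 ± 0.57 (edgeR adjusted p = 0.00165), a p that is conditioned on high counts in the transgenic libraries, since these alone brought Itgax past the filter.

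Axl, a receptor kinase for phosphatidylserine-bridging ligands, was present in all 4 groups, at 18.3, 9.62, 12.6 and 16 RPKM in 5xFAD-Dp16, 22.4, 13.8, 20.1 and 14.6 RPKM in 5xFAD, 13.9, 9.02, 5.89 and 7.91 RPKM in Dp16 and 13.2, 11.5, 3.67 and 13.2 RPKM in wild-type. Its 5xFAD-Dp16 and Dp16 libraries overlapped, and the log2 fold change of 0.58 ± 0.33 was not called (edgeR adjusted p = 0.98). Hcar2, a receptor for niacin and ketone bodies, averaged 1.67 ± 1.13 RPKM in 5xFAD-Dp16, 2.54 ± 1.19 in 5xFAD, 0.0238 ± 0.0275 in Dp16 and 0.0193 ± 0.0241 in wild-type. Its log2 fold change of 5.78 ± 0.81 (edgeR adjusted p = 0.00369) rests on 267 counts in 5xFAD-Dp16 and 4 counts in Dp16 over the 4 libraries of each, and so depends on how the fit treats counts near 0. As for Itgax, the transgenic libraries alone brought it past the filter.

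Cd84 and Ly9 are self-binding SLAM family receptors of leukocytes, and both were called. Cd84 averaged 3.77 ± 1.24 RPKM in 5xFAD-Dp16, 4.81 ± 0.700 in 5xFAD, 1.27 ± 0.27 in Dp16 and 1.04 ± 0.362 in wild-type (log2 fold change over Dp16 1.49 ± 0.28, edgeR adjusted p = 0.0299). Ly9 averaged 1.47 ± 0.623 RPKM in 5xFAD-Dp16, 2.23 ± 1.04 in 5xFAD, 0.157 ± 0.189 in Dp16 and 0.211 ± 0.0686 in wild-type (log2 fold change 3.17 ± 0.56, edgeR adjusted p = 0.0175, with the same condition on the filter). The remaining receptors were not called by edgeR, though DESeq2 called Cd180. Cd180, a Toll-like receptor homologue, averaged 1.29 ± 0.742 RPKM in 5xFAD-Dp16, 2.49 ± 0.345 in 5xFAD, 0.171 ± 0.116 in Dp16 and 0.361 ± 0.314 in wild-type, with a log2 fold change over Dp16 of 2.84 ± 0.59 (edgeR adjusted p = 0.0555) and no overlap between the groups. Cd22, an inhibitory sialic acid receptor, averaged 0.323 ± 0.0609 RPKM in 5xFAD-Dp16, 0.641 ± 0.339 in 5xFAD, 0.0813 ± 0.0675 in Dp16 and 0.0458 ± 0.0622 in wild-type, with a log2 fold change of 1.93 ± 0.72. Lilrb4a, an inhibitory receptor of myeloid cells, was the untested member, with 5 counts in all in 5xFAD-Dp16, 17 in 5xFAD and 0 in Dp16 and in wild-type. Its annotated exons overlap those of Gm49339 on the same strand, and those of Cd180 and Cd22 overlap genes on the opposite strand, so reads of these 3 receptors are uncertain.

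**Figure D2:**
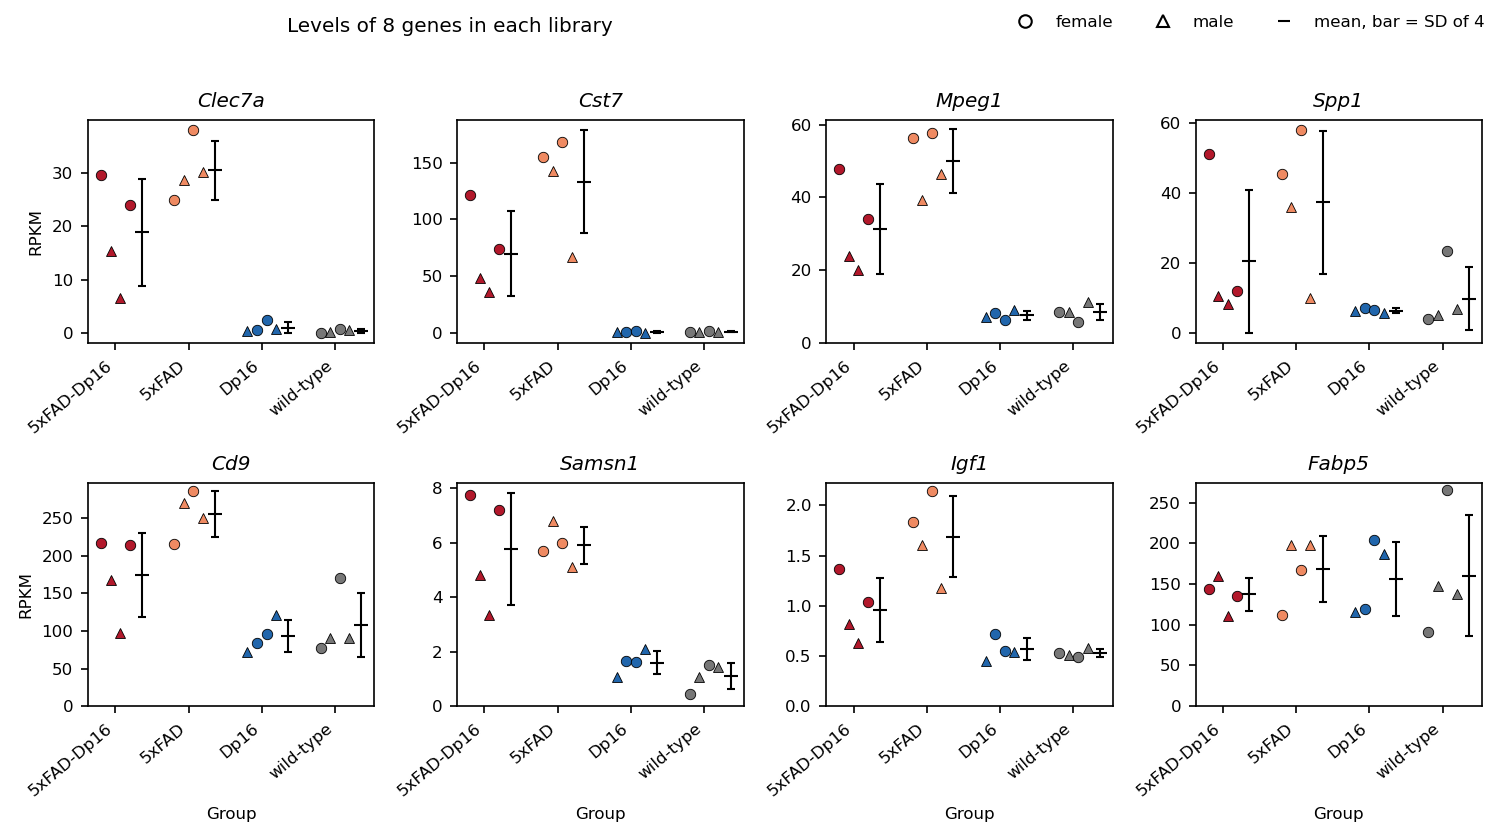
RPKM of 8 members in each library by group; circles are females, triangles males, and the dash with its bar the mean and SD of 4 libraries. Clec7a, Cst7 and Mpeg1 separate transgenic from other libraries, Spp1 and Igf1 spread within the transgenic groups, and Fabp5 overlaps in all 4 groups.

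Of the 7 secreted factors, Ccl6 and Lgals3bp were called. Ccl6, a CC chemokine of rodent myeloid cells, stood at 30.5, 19.8, 10.6 and 33.9 RPKM in 5xFAD-Dp16, 28, 53.9, 55.9 and 36.2 RPKM in 5xFAD, 1.38, 1.71, 4.89 and 5.51 RPKM in Dp16 and 1.73, 2.23, 4.06 and 4.37 RPKM in wild-type. Transgenic libraries were all higher than the others, and 5xFAD-Dp16 replicate 3 was the lowest of the transgenic 8. The log2 fold change over Dp16 was 2.71 ± 0.50 (edgeR adjusted p = 0.0231). Lgals3bp, a secreted glycoprotein that binds galectin-3, averaged 26.9 ± 10.5 RPKM in 5xFAD-Dp16, 30.5 ± 10.6 in 5xFAD, 8.18 ± 1.46 in Dp16 and 5.12 ± 1.68 in wild-type, a log2 fold change of 1.62 ± 0.26 over Dp16 (edgeR adjusted p = 0.00881).

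Spp1 encodes osteopontin, a secreted ligand of integrins. Its libraries read 51.2, 10.7, 8.5 and 12 RPKM in 5xFAD-Dp16, 45.6, 36.2, 58.2 and 9.997 RPKM in 5xFAD, 6.44, 7.25, 6.68 and 5.74 RPKM in Dp16 and 4.21, 5.3, 23.4 and 6.85 RPKM in wild-type. In 5xFAD-Dp16 replicate 1 stood far above the other 3, 5xFAD replicate 4 was as low as they were, and wild-type replicate 3 exceeded 3 of the 5xFAD-Dp16 libraries. Its log2 fold change over Dp16 was 1.36 ± 0.55 (edgeR adjusted p = 0.98). Timp2, an inhibitor of matrix metalloproteinases, stood at 62, 57.3, 57.7 and 65.4 RPKM in 5xFAD-Dp16, 55.1, 51.3, 54.7 and 57.5 RPKM in 5xFAD, 63.4, 62.9, 40.1 and 48.5 RPKM in Dp16 and 57.1, 62.4, 31.6 and 48.1 RPKM in wild-type. The groups of Timp2 overlapped except that all 5xFAD-Dp16 libraries exceeded all 5xFAD libraries in normalized counts, and its log2 fold change over Dp16 was 0.14 ± 0.17.

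Igf1, insulin-like growth factor 1, averaged 0.961 ± 0.318 RPKM in 5xFAD-Dp16, 1.69 ± 0.406 in 5xFAD, 0.564 ± 0.11 in Dp16 and 0.528 ± 0.0412 in wild-type, with a log2 fold change over Dp16 of 0.71 ± 0.19 (edgeR adjusted p = 0.242). Csf1, a ligand of the receptor on which microglia depend for survival, averaged 3.51 ± 1.15 RPKM in 5xFAD-Dp16, 5.27 ± 2.18 in 5xFAD, 2.06 ± 0.532 in Dp16 and 2.25 ± 1.1 in wild-type. Dkk2, an antagonist of Wnt signalling, averaged 0.312 ± 0.158 RPKM in 5xFAD-Dp16, 0.537 ± 0.19 in 5xFAD, 0.0405 ± 0.049 in Dp16 and 0.0682 ± 0.0627 in wild-type. None of these 3 was called by edgeR against Dp16, though DESeq2 called Dkk2. Per gene length Timp2 was the most abundant secreted member in 5xFAD-Dp16 cortex and Dkk2 the least.

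Among the 4 tetraspanins and other membrane proteins, Cd52 was called. Cd9, a tetraspanin, was the most abundant member in transgenic cortex, at 217, 167, 97.9 and 215 RPKM in 5xFAD-Dp16, 215, 270, 286 and 251 RPKM in 5xFAD, 72.2, 84.3, 96.4 and 121 RPKM in Dp16 and 77.6, 90.8, 171 and 90.9 RPKM in wild-type. Every 5xFAD library stood above every wild-type library, while 5xFAD-Dp16 replicate 3 fell within the Dp16 range. Its log2 fold change over Dp16 was 0.82 ± 0.29 (edgeR adjusted p = 0.696). Cd63, a tetraspanin of late endosomes and exosomes, stood at 108, 82.8, 56.2 and 112 RPKM in 5xFAD-Dp16, 105, 132, 139 and 127 RPKM in 5xFAD, 59.2, 59.6, 88.7 and 89.5 RPKM in Dp16 and 45.9, 67.9, 119 and 62 RPKM in wild-type. The groups of Cd63 overlapped except that all 5xFAD libraries exceeded all Dp16 libraries, and wild-type replicate 3 stood above all 4 libraries of 5xFAD-Dp16.

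Ank, a membrane exporter of pyrophosphate and citrate, stood at 68.7, 64.6, 66.4 and 61 RPKM in 5xFAD-Dp16, 77, 65.9, 75.9 and 61.5 RPKM in 5xFAD, 68.2, 68, 53.5 and 52.1 RPKM in Dp16 and 69.2, 64, 44 and 73.6 RPKM in wild-type. All 4 groups overlapped, and wild-type replicate 3 was the lowest library. Cd52, a short glycosylphosphatidylinositol-anchored protein of leukocytes, averaged 34.8 ± 18.4 RPKM in 5xFAD-Dp16, 48.4 ± 8.56 in 5xFAD, 8.93 ± 3.01 in Dp16 and 6.95 ± 2.15 in wild-type. Against Dp16 its log2 fold change was 1.84 ± 0.31 (edgeR adjusted p = 0.0143). Exons of Cd52 and Cd9 overlap genes on the opposite strand, and the sources used here do not say whether counting used strand.

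The largest fold change was in the 9 genes of lysosome, phagosome and lipid handling, of which Mpeg1 and Slc11a1 were called, as were Cst7 and Cybb, which entered the test only through the transgenic libraries. Cst7 encodes cystatin F, an inhibitor of cathepsins, and stood at 121, 48.6, 35.9 and 73.5 RPKM in 5xFAD-Dp16, 156, 143, 169 and 66.8 RPKM in 5xFAD, 0.321, 0.199, 1.47 and 0 RPKM in Dp16 and 0.361, 0.267, 1.31 and 0.926 RPKM in wild-type. Libraries without transgenes held almost no Cst7, with 42 counts in all in Dp16 and 55 in wild-type, against 5736 in 5xFAD-Dp16 and 11314 in 5xFAD. The log2 fold change over Dp16 was 7.09 ± 0.63 (edgeR adjusted p = 0.000171), the largest among the members, with a p that is conditioned on high counts in the transgenic libraries.

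Mpeg1 encodes perforin-2, a pore-forming protein of macrophages, and stood at 47.7, 23.9, 20.1 and 34 RPKM in 5xFAD-Dp16, 56.4, 39.3, 57.8 and 46.4 RPKM in 5xFAD, 7.1, 8.25, 6.24 and 9.1 RPKM in Dp16 and 8.44, 8.48, 5.74 and 11.2 RPKM in wild-type. Transgenic and other libraries did not overlap, and the 2 males of 5xFAD-Dp16 were the lowest transgenic libraries. The log2 fold change over Dp16 was 1.96 ± 0.24 (edgeR adjusted p = 0.00165). Fabp5, a fatty acid binding protein that is not restricted to microglia, stood at 144, 159.7, 111 and 135 RPKM in 5xFAD-Dp16, 112, 199, 167 and 198 RPKM in 5xFAD, 116, 119.9, 205 and 187 RPKM in Dp16 and 90.5, 148, 266 and 138 RPKM in wild-type. The groups overlapped fully and its log2 fold change was −0.24 ± 0.33, the only one below 0.

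Slc11a1, a divalent metal transporter of phagosomes, averaged 5.15 ± 2.38 RPKM in 5xFAD-Dp16, 6.35 ± 2.24 in 5xFAD, 0.869 ± 0.184 in Dp16 and 1.12 ± 0.0909 in wild-type, with a log2 fold change over Dp16 of 2.42 ± 0.28 (edgeR adjusted p = 0.00165). Cybb, the catalytic chain of the phagocyte NADPH oxidase, averaged 1.16 ± 0.555 RPKM in 5xFAD-Dp16, 1.04 ± 0.321 in 5xFAD, 0.118 ± 0.106 in Dp16 and 0.0706 ± 0.0707 in wild-type, with a log2 fold change of 3.21 ± 0.61 (edgeR adjusted p = 0.0299, with the same condition). Gpnmb, a transmembrane glycoprotein of lysosomes, read 16.1, 2.26, 2.1 and 3.54 RPKM in 5xFAD-Dp16, 15.4, 6.68, 10.8 and 2.05 RPKM in 5xFAD, 0.58, 0.937, 0.578 and 0.606 RPKM in Dp16 and 1.01, 0.909, 0.195 and 0.969 RPKM in wild-type. Replicate 1 held most of the Gpnmb reads of 5xFAD-Dp16, and its log2 fold change of 2.86 ± 0.63 over Dp16 was called by DESeq2 but not by edgeR (edgeR adjusted p = 0.0754).

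Lgals3 (galectin-3, which binds damaged lysosomes) averaged 2.64 ± 1.27 RPKM in 5xFAD-Dp16, 3.35 ± 0.548 in 5xFAD, 1.69 ± 1.5 in Dp16 and 0.695 ± 0.42 in wild-type. Ch25h (cholesterol 25-hydroxylase) averaged 2.11 ± 1.63 RPKM in 5xFAD-Dp16, 2.6 ± 1.26 in 5xFAD, 0.533 ± 0.419 in Dp16 and 0.261 ± 0.113 in wild-type. Rab7b (a small GTPase of late endosomes) averaged 0.964 ± 0.565 RPKM in 5xFAD-Dp16, 1.6 ± 0.451 in 5xFAD, 0.45 ± 0.123 in Dp16 and 0.223 ± 0.0664 in wild-type. None of the 3 was called by edgeR or DESeq2 against Dp16, with log2 fold changes of 0.58 ± 0.54, 1.80 ± 0.65 and 0.95 ± 0.26 in that order. Exons of Ch25h also overlap a gene on the opposite strand.

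Of the 4 cytoplasmic adaptors and sensors, Samsn1 and Naip2 were called. Samsn1, an SH3 and SAM domain adaptor of leukocytes (chromosome 16, 75858793 to 76022281, minus strand), is the 1 member inside the segment that Dp16 triplicates, taken as Lipi to Zbtb21 (75540514 to 97962622). It stood at 7.74, 4.81, 3.35 and 7.19 RPKM in 5xFAD-Dp16, 5.7, 6.78, 5.98 and 5.12 RPKM in 5xFAD, 1.05, 1.64, 1.6 and 2.09 RPKM in Dp16 and 0.439, 1.06, 1.5 and 1.42 RPKM in wild-type. The 5xFAD-Dp16 libraries spread on both sides of the 5xFAD range, and the 2 males were the lowest. Its log2 fold change was 1.78 ± 0.35 in 5xFAD-Dp16 over Dp16 (edgeR adjusted p = 0.0353) and 0.47 ± 0.36 in Dp16 over wild-type (edgeR adjusted p = 1 after rounding).

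Naip2, an inflammasome sensor of bacterial proteins, averaged 1.16 ± 0.458 RPKM in 5xFAD-Dp16, 1.43 ± 0.264 in 5xFAD, 0.258 ± 0.085 in Dp16 and 0.292 ± 0.0835 in wild-type, a log2 fold change of 2.09 ± 0.25 over Dp16 (edgeR adjusted p = 0.00165). Its close relatives Naip5 (171, 229, 56 and 45 counts in all in 5xFAD-Dp16, 5xFAD, Dp16 and wild-type) and Naip6 (45, 86, 29 and 19) could share reads with it, so its level is uncertain. Capg, an actin-capping protein, stood at 9.72, 6.7, 4.72 and 8.72 RPKM in 5xFAD-Dp16, 9.21, 7.9, 12.3 and 11.3 RPKM in 5xFAD, 2.61, 2.93, 3.19 and 2.44 RPKM in Dp16 and 1.33, 1.12, 2.96 and 3.06 RPKM in wild-type. Its 5xFAD-Dp16 libraries all exceeded those of Dp16, and the log2 fold change of 1.35 ± 0.30 was called by DESeq2 but not by edgeR (edgeR adjusted p = 0.0885). Baiap2l2, a membrane-bending protein known from epithelia and hair cells, stood at 2.17, 1.93, 1.24 and 1.96 RPKM in 5xFAD-Dp16, 3.33, 3.16, 2.97 and 2.16 RPKM in 5xFAD, 0.814, 0.947, 1.09 and 0.974 RPKM in Dp16 and 1.14, 1.25, 0.508 and 1.42 RPKM in wild-type. Groups with and without transgenes did not overlap on the Dp16 background, with a log2 fold change of 0.89 ± 0.27 (edgeR adjusted p = 0.388).

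In 5xFAD against wild-type cortex, the contrast in view when the members were chosen, 22 were called higher, beside 1.5% of all genes, and nothing is read from that count. Their median log2 fold change was 2.43, against −0.05 over all genes. The values ran from 7.46 ± 0.63 for Cst7, 7.01 ± 0.65 for Itgax, 6.73 ± 0.83 for Hcar2 and 6.14 ± 0.64 for Clec7a to 0.12 ± 0.14 for Ank, 0.10 ± 0.17 for Timp2 and −0.01 ± 0.34 for Fabp5. Ank, Timp2 and Fabp5, which are abundant in wild-type cortex too, differed by less than their standard errors in whole tissue. In 5xFAD-Dp16 against wild-type cortex, 16 members were called higher, beside 0.496% of all genes, with a median of 1.90. That contrast shares its wild-type libraries with the one just described. Fitted on those 8 libraries alone it called 3 members, and the share of all genes called in that fit is not given here.

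The duplication alone came with no call among the members. In Dp16 against wild-type cortex edgeR called 0, beside 0.0057% of all genes called in either direction, and DESeq2 also called 0. Of the 32 tested, 16 lay above 0 and 16 below, beside 42.9% of all genes above, and the median was 0.01. Rab7b and Lgals3bp had an unadjusted p under 0.05, both higher, beside 1.29% of all genes. Rab7b read 1.7, 0.501, 0.542 and 1.11 RPKM in 5xFAD-Dp16, 1.58, 1.46, 2.21 and 1.14 RPKM in 5xFAD, 0.409, 0.488, 0.597 and 0.307 RPKM in Dp16 and 0.288, 0.139, 0.262 and 0.201 RPKM in wild-type. It was the member whose Dp16 libraries all exceeded all wild-type libraries, as in 0.98% of all genes, with a log2 fold change of 0.99 ± 0.27 (edgeR adjusted p = 0.961). Lgals3bp had a log2 fold change of 0.64 ± 0.25 (edgeR adjusted p = 1 after rounding), and with the gene-length slope as a covariate it was called (0.78 ± 0.15, edgeR adjusted p = 0.0294). Clec7a was called with no low-count filter (1.17 ± 0.27, edgeR adjusted p = 0.0337), where its highest Dp16 library, replicate 3, is one of the 3 of lowest gene-length slope.

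Within transgenic cortex, most members read lower with the duplication, and none was called. In 5xFAD-Dp16 against 5xFAD cortex 30 of the 32 lay below 0, beside 49.1% of all genes, with a median log2 fold change of −0.62 against 0.00 over all genes. The lower readings of myeloid genes were known when the members were chosen, so the direction is no independent evidence. With edgeR 0 were called, beside 0.0057% of all genes, and 6 had an unadjusted p under 0.05, all lower, beside 1.97% of all genes. These 6 were Igf1 (−0.85 ± 0.19), Rab7b (−0.86 ± 0.25), Mpeg1 (−0.70 ± 0.23), Itgax (−1.16 ± 0.44), Baiap2l2 (−0.69 ± 0.26) and Cst7 (−1.06 ± 0.45), in log2 fold change ± SE, and apart from Igf1 each had an adjusted p of 1 after rounding.

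Igf1 read 1.37, 0.814, 0.628 and 1.03 RPKM in 5xFAD-Dp16, 1.83, 1.6, 2.14 and 1.18 RPKM in 5xFAD, 0.451, 0.715, 0.546 and 0.544 RPKM in Dp16 and 0.533, 0.51, 0.486 and 0.582 RPKM in wild-type. The 5xFAD-Dp16 and 5xFAD groups overlapped only in that 5xFAD-Dp16 replicate 1 stood above 5xFAD replicate 4. Its edgeR adjusted p was 0.542, while DESeq2 gave an adjusted p of 0.0134 and edgeR with the gene-length slope as a covariate an adjusted p of 0.0204, each its single member called. Baiap2l2 was the member without overlap on the lower side, beside 1.48% of all genes, and Timp2 (0.13 ± 0.17) was the one without overlap on the higher side, beside 1.73%. Cybb (0.05 ± 0.54) and Samsn1 (−0.08 ± 0.33), the member with the extra gene copy, lay near 0. With no low-count filter 5 members were called lower: Ccl6, Clec7a, Cst7, Itgax and Spp1. That fit called 42 genes in all, against 1 as reported.

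The ratio of the 5xFAD effect with Dp16 to the effect without it was below 1 for 29 of the 32 tested members, beside 42.9% of all genes, with a median log2 ratio of −0.52 against 0.04 over all genes. The effect without Dp16 is the one in view when the members were chosen, so values below 1 are no independent evidence of a smaller effect. Neither edgeR nor DESeq2 called a member, edgeR called no gene at all, and 6 members had an unadjusted p under 0.05, all below 1, beside 0.929% of all genes. Rab7b had a ratio of folds of 0.276 (log2 ratio −1.86 ± 0.37), and was the member that read both higher in Dp16 than in wild-type cortex and lower in 5xFAD-Dp16 than in 5xFAD cortex at an unadjusted p under 0.05. The remaining 5 were Itgax at 0.201 (log2 ratio −2.31 ± 0.92), Clec7a at 0.243 (−2.04 ± 0.78), Cd52 at 0.523 (−0.94 ± 0.44), Igf1 at 0.539 (−0.89 ± 0.27) and Lgals3bp at 0.556 (−0.85 ± 0.35). Each had an edgeR adjusted p of 1. Itgax had 11 counts in all in wild-type and 30 in Dp16, and Clec7a had 75 and 206. Both ratios therefore rest on few counts without transgenes, and Itgax passed the low-count filter only through the transgenic libraries. At the other end, the ratio was 1.10 for Cd180, 1.03 for Timp2 and 1.02 for Slc11a1, with log2 ratios of 0.14 ± 0.76, 0.04 ± 0.23 and 0.03 ± 0.37. Cst7 had a ratio of 0.774 (−0.37 ± 0.86). With no low-count filter Clec7a (−2.04 ± 0.35, edgeR adjusted p = 1.42e-05) and Itgax (−2.31 ± 0.56, edgeR adjusted p = 0.0483) were called, among 25 genes in all.

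**Figure D3:**
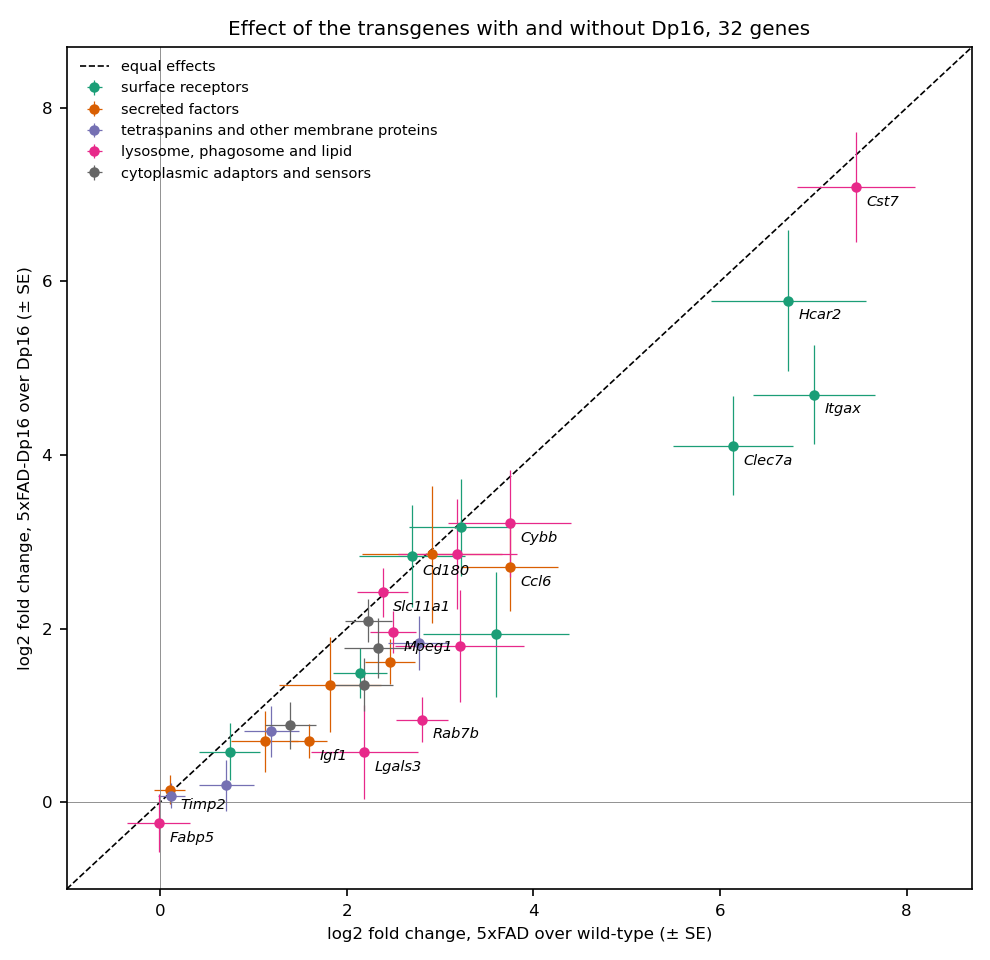
Log2 fold change of each tested member with Dp16 (5xFAD-Dp16 over Dp16, vertical) and without it (5xFAD over wild-type, horizontal), with standard errors, coloured by role. Points under the dashed line of equal effects have a ratio below 1; Rab7b, Itgax and Clec7a lie well under it, while Slc11a1 and Cd180 lie close to it.

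A common level of myeloid genes was read in the same libraries. The mean log2 CPM of 16 pan-myeloid genes was 5.88 ± 0.51 in 5xFAD-Dp16, 6.48 ± 0.20 in 5xFAD, 4.61 ± 0.06 in Dp16 and 4.66 ± 0.11 in wild-type cortex (SD, n = 4 each). 5xFAD-Dp16 exceeded Dp16 by 1.27 (two-sided exact permutation p = 0.0286, the smallest that 70 splits allow, adjusted over 5 contrasts 0.0476) and lay 0.60 below 5xFAD, a difference that was in view when the members were chosen and is given with no test. The 5 contrasts of this adjustment include 5xFAD against wild-type and 5xFAD-Dp16 against 5xFAD, both in view when the members were chosen. The adjusted value therefore depends in part on values known beforehand. Dp16 against wild-type gave −0.05 (exact permutation p = 0.457, adjusted 0.457). The difference between 5xFAD-Dp16 and 5xFAD was −0.79 without 5xFAD-Dp16 replicate 1 and −0.42 without replicate 3. Homeostatic microglial genes (P2ry12, Tmem119 and 8 others) also read lower in 5xFAD-Dp16 than in 5xFAD in 10 of 10 cases, beside 49.1% of all genes, with a median of −0.54. By edgeR 0 were called and 6 had an unadjusted p under 0.05, beside 1.97% of all genes. Lower myeloid genes in that contrast were in view when the lists were chosen, so the direction is no independent evidence. With the transgenes these 10 genes read higher, with a median of 1.10 in 5xFAD over wild-type. In 5xFAD-Dp16 over Dp16 their median was 0.80, with 10 of 10 above 0, beside 51.2% of all genes, and 1 called, beside 0.387%.

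Set against this level in each library, the members lay in equal number on both sides of 0 between the transgenic groups. Their difference of 5xFAD-Dp16 minus 5xFAD, after subtracting the pan-myeloid mean, was above 0 for 16 and below 0 for 16, with a median of −0.01 and a range of −0.56 for Itgax to 0.73 for Timp2. Cst7 (−0.42), Spp1 (−0.44) and Cd180 (−0.55) were at the lower end, and Cybb (0.66), Samsn1 (0.49), Ank (0.49) and Lgals3bp (0.39) at the upper end. The commonly used marks named at the outset (Cst7, Itgax, Clec7a, Spp1 and Gpnmb) were all below 0, with Clec7a at −0.29 and Gpnmb at −0.18. The SD of their relative levels over 4 libraries ran from 0.27 (Cst7) to 0.94 (Gpnmb) in 5xFAD-Dp16. In 5xFAD it ran from 0.27 (Clec7a) to 1.11 (Gpnmb). The 16 members above 0 included Axl (0.25), Slc11a1 (0.24) and Lgals3 (0.09), so nothing is read from these marks alone. Timp2 and Ank, like Fabp5 (0.31), hardly differed between any groups, so their relative values mirror the pan-myeloid difference. In 5xFAD-Dp16 minus Dp16 the same relative level was above 0 for 20 members and below 0 for 12, from −1.47 for Fabp5 to 6.10 for Cst7. These relative values are a description and carry no test.

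**Figure D4:**
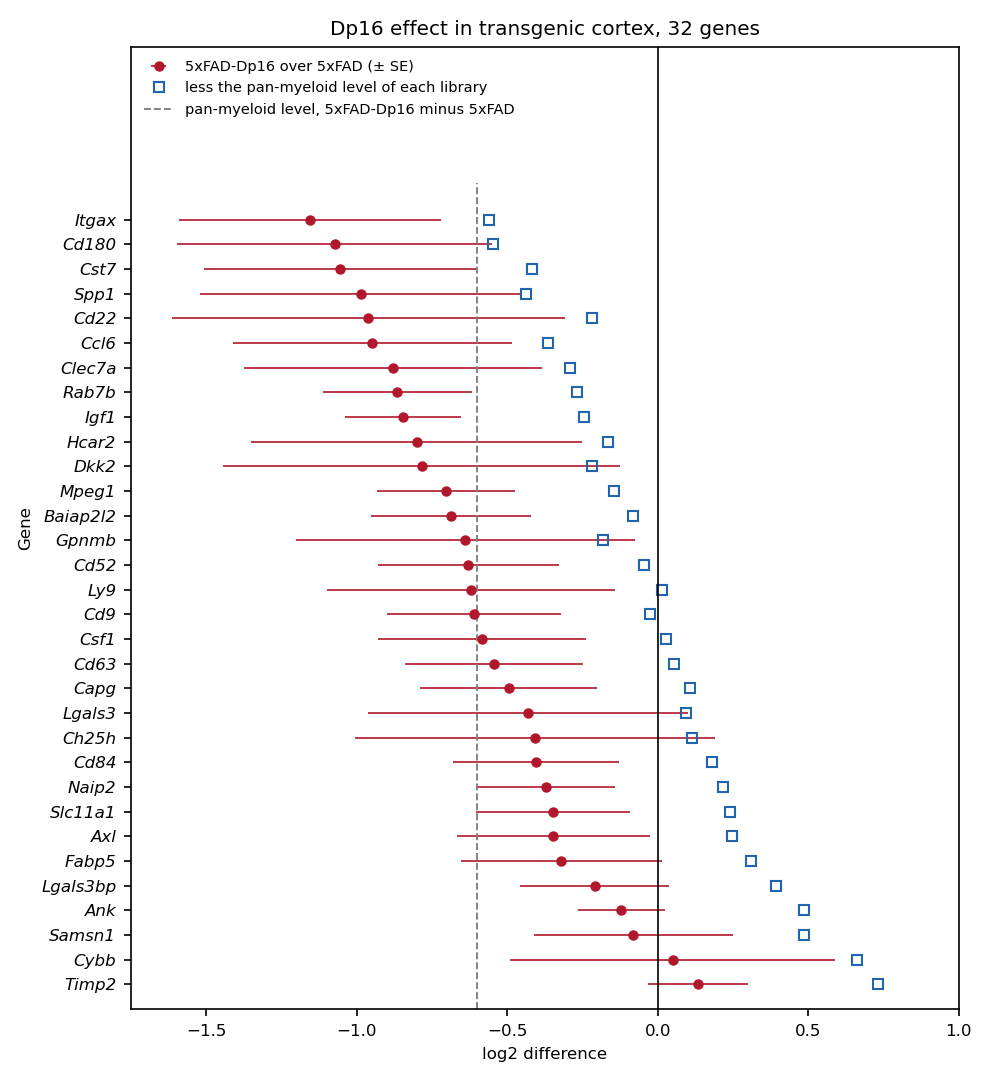
Log2 fold change of 5xFAD-Dp16 over 5xFAD for each tested member (filled, ± SE) and the same difference after subtracting the pan-myeloid level of each library (open squares). The dashed line is the pan-myeloid difference of −0.60; 30 filled points lie below 0, while the open squares fall on both sides of 0.

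The libraries of 5xFAD-Dp16 differed among themselves along the line of sex. Replicate 1, a female, was the highest for 24 of the 32 tested members and replicate 3, a male, the lowest for 24. Their pan-myeloid means were 6.43 and 5.34. These counts compare single mice, and the share of all genes highest or lowest in these libraries is not given. Both females exceeded both males in 28 members, beside 16.4% of all genes in the direction of females, with a median log2 difference of 0.96. In 5xFAD this held for 17 members (29.3% of all genes), in Dp16 for 8 (9.43%) and in wild-type for 2 (7.01%). The pan-myeloid mean was 6.30 in females and 5.46 in males of 5xFAD-Dp16, and 6.64 and 6.31 in 5xFAD.

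As an example, Gpnmb averaged 9.84 RPKM in females and 2.18 RPKM in males of 5xFAD-Dp16, and 13.1 and 4.37 RPKM in 5xFAD. Slc11a1 averaged 7.13 and 3.17 RPKM in females and males of 5xFAD-Dp16, and 8.14 and 4.55 RPKM in 5xFAD. Not all members followed: Fabp5 averaged 140 RPKM in females and 198 RPKM in males of 5xFAD, and Cd9 251 and 261 RPKM.

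Female minus male, the 5xFAD effect averaged over both Dp16 states was above 0 for 27 of the 32 members, beside 49.5% of all genes, and edgeR and DESeq2 each called 0 members. With edgeR 5 members had an unadjusted p under 0.05, all higher, beside 2.26% of all genes: Mpeg1 (0.87 ± 0.25), Slc11a1 (0.94 ± 0.31), Gpnmb (1.94 ± 0.73), Axl (1.07 ± 0.41) and Lgals3bp (0.76 ± 0.32), each with an adjusted p of 0.634. Leaving out wild-type replicate 1 leaves replicate 3, the library of lowest gene-length slope, as the only wild-type female. No count of members called is given for such a fit. Each sex has 2 animals per group, so these values rest on few mice. Choroid plexus markers (Ttr and 5 others) summed to 675 and 1941 RPKM in the 2 females of 5xFAD-Dp16 and to 7.37 and 27.4 RPKM in its 2 males, while in 5xFAD they summed to 15.8 and 13.6 RPKM in females and 27.4 and 537 RPKM in males. In Dp16 they summed to 10.4 and 5.42 RPKM in females and 851 and 1048 RPKM in males, and in wild-type to 261 and 37.9 RPKM in females and 202 and 9.34 RPKM in males. The part of this tissue in the difference between the sexes was not tested.

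Other genes that are known from plaque-associated microglia were read beside the members. Of 30 such genes that are not members (Cd68 and Tyrobp are also among the 16 pan-myeloid genes), 29 were tested, and 8 were called higher and 0 lower in 5xFAD-Dp16 against Dp16, beside 0.387% of all genes higher, with a median log2 fold change of 1.10. The 4 with the smallest p were B2m, the light chain of MHC class I (1.15 ± 0.15, edgeR adjusted p = 0.00253), Cd68, a lysosomal protein of macrophages (1.77 ± 0.26, 0.00500), Ccl3, a chemokine (3.95 ± 0.58, 0.00555), and Trem2 itself (2.05 ± 0.31, 0.00627). Atp6v0d2 (7.43 ± 0.87), also among the 8, had 0 counts in Dp16 and in wild-type and passed the low-count filter only through the transgenic libraries. Ccl4, another of the 8, had at most 79 counts in a library. The count called and the median therefore describe these genes and support nothing. In 5xFAD-Dp16 against 5xFAD 28 of the 29 lay below 0, beside 49.1% of all genes, with a median of −0.34. By edgeR 0 were called and 7 had an unadjusted p under 0.05, all lower, beside 1.97% of all genes. This list too was chosen with earlier results of these data known, so its direction is no independent evidence.

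Markers of other immune cells were summed in each library. Border-associated macrophage markers summed to 2.17 to 5.37 RPKM in 5xFAD-Dp16, 3.43 to 5.09 in 5xFAD, 2.29 to 4.51 in Dp16 and 2.56 to 4.43 in wild-type. In the same order of groups, monocyte and neutrophil markers summed to 2.1 to 8.83, 1.95 to 9.36, 1.71 to 7.78 and 3.77 to 6.01. Among the monocyte markers Ly6c2, with at most 18 counts in a library, read 1.76 ± 0.80 higher on the log2 scale in 5xFAD-Dp16 than in Dp16 (edgeR adjusted p = 0.98) and 2.94 ± 0.84 higher in 5xFAD than in wild-type, and its part in the members' levels was not tested. The 7 T and NK cell markers summed to 5.03 to 10.3, 2.94 to 5.81, 2.48 to 6.85 and 3.55 to 6.83. Dendritic cell markers, relevant to Itgax, summed to 2.20 to 2.67, 1.85 to 2.51, 1.93 to 3.05 and 1.47 to 3.01, with Xcr1 and Ccr7 at 0 in 5xFAD-Dp16 and in Dp16 and Clec9a at 0 in wild-type. The ranges of each of these lists overlapped between all 4 groups. The low-count filter left 4 of 7 monocyte and neutrophil, 1 of 7 T and NK cell and 2 of 6 dendritic cell markers. Differences of these low sums between groups were not tested. The 16 pan-myeloid genes summed to 947 to 2117 RPKM in 5xFAD-Dp16, 2033 to 2696 in 5xFAD, 535 to 636 in Dp16 and 534 to 696 in wild-type. Of those 16, 9 were called higher in 5xFAD-Dp16 than in Dp16, beside 0.387% of all genes, with a median log2 fold change of 1.33. Neuronal markers summed to 2440.0 to 3084 RPKM in 5xFAD-Dp16, 2293 to 2548 in 5xFAD, 2640.0 to 3700.0 in Dp16 and 2806 to 3434 in wild-type.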

How the data were processed

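Polyadenylated RNA of cortex from 16 mice, 4 in each of 4 groups, was sequenced by the authors. They deposited raw counts per gene and, in a second table, RPKM values of the same libraries per the file headers. Per the submitters' processing notes the tools included bcl2fastq, FastQC 0.11.5, HISAT2 2.1.0, SAMtools 1.5 and HTSeq 0.6.1, with GRCm38. The sources used here do not say if strand entered the counting.

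Members and lists were chosen with earlier results of these data known. Counts were tested with edgeR 4.0.16 in R 4.3.3 (quasi-likelihood test, TMM, minimum count 10, sex as a term, all 16 libraries), which left 17555 of 55385 genes. Every member is named with its level by group, and values of single libraries are given for the 3 members of highest mean RPKM in 5xFAD within each role and for Samsn1; those for Igf1, Gpnmb and Rab7b were added after their values were seen. Coordinates are on GRCm38 (GENCODE M21), while the deposited table cites a later GENCODE release. Libraries had 16874481 to 22912168 counts, and no 2 libraries of a group agreed within counting noise (chi-square per degree of freedom 17.2 to 302). Nothing says how the mice relate to each other beyond being separate samples, so p-values measure the spread between these samples. Alternatives were DESeq2 1.42.0, RLE scaling, limma 3.58.1 on log2(RPKM + 0.1) or log2(RPKM + 1), no low-count filter, no sex term, a covariate for gene-length dependence, 2-group fits, a replicate block and each library left out. The tests were checked on simulated data. Some items are not reported here.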

Additional observations from a re-analysis of the deposited data

Results flagged for a closer look

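A library stood far from the other 3 of its group in 11 of 130 sets of 4 values, judged by the gap to its nearest neighbour as a share of the whole range, and chance gives about 1 in 20 such flags. Gpnmb and Spp1 were far higher in 5xFAD-Dp16 replicate 1 than in its group. Gpnmb stood at 16.1 RPKM against 2.1 to 3.54 in the other 3 (share 0.897), and Spp1 at 51.2 RPKM against 8.50 to 12 (share 0.918).

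The other 9 flags were in groups without transgenes, and 8 of these fell in the 3 libraries of lowest gene-length slope. In wild-type replicate 3, Cd52 was highest at 10.2 RPKM against 5.53 to 6.08 (share 0.883), Cd9 highest at 171 against 77.6 to 90.9 (0.858), Spp1 highest at 23.4 against 4.21 to 6.85 (0.862) and Gpnmb lowest at 0.195 against 0.909 to 1.01 (0.875). In Dp16 replicate 3, Cd52 was highest at 13.4 RPKM against 7.16 to 7.85 (0.890) and Cybb highest at 0.275 against 0.0475 to 0.0755 (0.877). In Dp16 replicate 4, Csf1 was lowest at 1.27 RPKM against 2.25 to 2.44 (0.839) and Lgals3bp lowest at 5.99 against 8.89 to 8.94 (0.983). In Dp16 replicate 2, Gpnmb was highest at 0.937 RPKM against 0.578 to 0.606 (0.922). The part of gene-length dependence in these values was not tested.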

How the results depend on the processing

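No called member turned its direction under the alternatives run, while the Dp16 against wild-type median, near 0, took either sign. Shares of all genes called are not given for the alternatives here and below, so nothing is read from their counts of members. Members called in 5xFAD-Dp16 against 5xFAD numbered 1 with DESeq2, 1 with the gene-length slope and 5 with no low-count filter, against 0 as reported. With no filter, 22 were called in 5xFAD-Dp16 against Dp16, 1 in Dp16 against wild-type, 2 in the interaction and 1 (Gpnmb) in the sex contrast. The gene-length slope gave 1 in Dp16 against wild-type, and fitting the 2 groups alone gave 3 in 5xFAD-Dp16 against wild-type. With log2(RPKM + 1) the medians were 0.92 for 5xFAD-Dp16 against Dp16, 1.38 for 5xFAD against wild-type and 0.98 for 5xFAD-Dp16 against wild-type. The cause was not tested, except that a larger pseudocount by construction shrinks folds of low genes.

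With 1 library left out, members called ranged from 7 to 17 in 5xFAD-Dp16 against Dp16, 17 to 25 in 5xFAD against wild-type, 11 to 16 in 5xFAD-Dp16 against wild-type and 0 to 0 in the other 3 genotype contrasts. In the sex contrast each such fit leaves 1 animal of a sex in a group, so no count is given there. Medians ranged from 1.56 to 1.95, 2.36 to 2.59 and 1.76 to 2.05 in the first 3 contrasts, from −0.73 to −0.43 in 5xFAD-Dp16 against 5xFAD, −0.07 to 0.11 in Dp16 against wild-type and −0.76 to −0.37 in the interaction. Pan-myeloid differences ranged from 1.08 to 1.45 in 5xFAD-Dp16 against Dp16, 1.75 to 1.89 in 5xFAD against wild-type, 1.03 to 1.40 in 5xFAD-Dp16 against wild-type, −0.79 to −0.42 in 5xFAD-Dp16 against 5xFAD and −0.09 to −0.01 in Dp16 against wild-type.

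Replicate numbers were taken as names of the samples and not as pairs, since no label says that they pair any. The 24 same-number pairs correlated from −0.354 to 0.514 (median 0.04, 9 over 0.1), and the 72 other pairs between groups from −0.62 to 0.445 (median −0.02). Of 16 libraries, 7 correlated best with their own number, and these values do not settle whether the numbers pair samples. The replicate block called 11 members in 5xFAD-Dp16 against Dp16 (Cd84, Cybb and Samsn1 not among them), 15 in 5xFAD-Dp16 against wild-type, 22 in 5xFAD against wild-type and 0 elsewhere. Without the 3 libraries of lowest gene-length slope, left out after seeing the data, medians were 1.88, 2.46, 1.98 and −0.60 in 5xFAD-Dp16 against Dp16, 5xFAD against wild-type, 5xFAD-Dp16 against wild-type and 5xFAD-Dp16 against 5xFAD, and −0.14 in Dp16 against wild-type. Genes of few reads, such as Lilrb4a, Hcar2, Dkk2 and Cd22, are limited by depth.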
